A study of Homo sapiens with 12 samples.

Results

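The replication-dependent histone genes were followed from human embryonic stem cells to early blood progenitors. They were taken as the 85 of 56593 gene symbols in the expression table that carry a histone cluster name (HIST1 to HIST4 followed by a histone type) and do not end as numbered pseudogenes of the P form do. The choice used names only and no measured value. Of the 85, 7 encode linker histone H1, 22 H2A, 25 H2B, 16 H3 and 15 H4, and 71 are annotated as protein coding and 14 as pseudogenes. Genes were tested where they reached 1 FPKM (fragments per kilobase of transcript scaled to the mapped total of the library, so a level per length) in at least 3 libraries, which 62 of the 85 did: 6, 15, 19, 11 and 11 of the types in that order.

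RNA was sequenced from undifferentiated cells of H1, an established human embryonic stem cell line, and from 3 populations derived from that line: APLNR+ mesoderm cells at day 2, CD31+CD34+ hemogenic endothelial progenitors at day 5 and CD43+ hematopoietic progenitors at day 8. Differentiating cultures received activin A and BMP4 first and VEGF and bFGF afterwards, in Custom mTeSR1 medium. Undifferentiated H1 cells were maintained in mTeSR medium, for which these factors are not named. Each population had 3 libraries, 12 in all, and no genetic change separates the groups. All material descends from 1 cell line, and nothing in the labels says whether replicate libraries came from separate cultures, so p-values measure the spread between libraries only. In what follows "H1 cells" means the cell line and "linker histone H1" the protein.

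Histone proteins package DNA. An octamer of H2A, H2B, H3 and H4 forms the core of the nucleosome, and linker histone H1 binds where DNA enters and leaves it. The replication-dependent genes lie in clusters, lack introns and are transcribed mainly in S phase, when new DNA must be packaged. Their mRNAs usually end not in a poly(A) tail but in a short stem-loop, which is bound by the stem-loop binding protein SLBP and cut free by a complex holding the U7 small nuclear RNA. In differentiated cells some of these genes also give polyadenylated mRNAs. A library made by selecting poly(A) tails would miss the usual form; whether these libraries were selected in that way is not given in the sources used here, and the labels name total RNA.

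The stem-loop was looked for first because it is the shared signature of the family and takes the place of the poly(A) tail. In GENCODE release 29 transcripts the letters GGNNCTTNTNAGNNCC stood in 32 of the 71 coding histone genes, against 78 of 19598 other coding genes (0.398%). All 33 histone genes whose annotated transcript holds the coding sequence alone lacked it, and 32 of the 38 with longer transcripts had it. The models of those 33 genes end before the place where the stem-loop would lie. 4 sequences are shown, 1 for each core type, with the 16 letters of the match in capitals and the annotated bases around it in lower case (RNA sense, written with T).
HIST1H2AE: aaccaaaGGCTCTTTTCAGAGCCacccacc
HIST1H2BC: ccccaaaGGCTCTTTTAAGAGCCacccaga
HIST1H3H: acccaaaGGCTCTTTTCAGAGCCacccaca
HIST1H4H: aaccaaaGGCCCTTTTCAGGGCCgcccact
The stem of the H4 genes differed from that of the other core types. All 8 H4 matches read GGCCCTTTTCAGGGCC or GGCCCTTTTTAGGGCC, and of the 24 matches in H2A, H2B and H3 genes 22 read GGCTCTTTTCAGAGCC or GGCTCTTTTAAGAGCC, the exceptions being HIST1H2AG and HIST1H3E. In 19 of the 32 genes an annotated transcript held AATAAA, the usual signal for polyadenylation, anywhere after the stem-loop. Its distance from the transcript end was not considered, and no rate of such matches by chance was worked out. Of genes named below for polyadenylated mRNAs, HIST1H2AC, HIST1H2BD and HIST2H2BE had it and HIST1H2BC did not. These letters alone therefore do not mark polyadenylated genes.

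Histone RNA was abundant in every library. Of the 85 genes, 46 reached at least 100 FPKM in all 12 libraries and 55 at least 10. The summed FPKM of the 85 genes was 22058, 19638 and 19713 in H1 cells, 26121, 25392 and 22738 in APLNR+ cells, 38706, 40634 and 38934 in CD31+CD34+ cells, and then 34401, 41469 and 33722 in CD43+ cells. The APLNR+ libraries all lay above those of H1 cells, and the libraries of both later populations lay above all APLNR+ ones but overlapped each other. The means were 1.21, 1.93 and 1.78 times that of H1 cells. In bulk RNA, more cells in S phase and more histone RNA in each cell cannot be told apart.

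The table's total differs between libraries, from 568036 to 1576040 summed FPKM, and genes of small RNAs hold 10.4% to 65.7% of it. As a share of the FPKM left when small RNA genes are set aside, the histone genes took from 3.26% to 4.10% in H1 cells, from 4.54% to 5.57% in APLNR+ cells, between 6.57% and 9.02% in CD31+CD34+ cells, and from 5.28% to 8.03% in CD43+ cells. On this scale the H1 cell libraries stayed below all others, while an APLNR+ library and a CD43+ library overlapped. Among marker genes, POU5F1 averaged 1002 FPKM in H1 cells and APLNR 383 in APLNR+ cells. CD34 averaged 47.7 in CD31+CD34+ cells and SPN, which encodes CD43, 75.5 in CD43+ cells. POU5F1, CD34 and SPN were highest in those populations. APLNR was not, as it averaged 403 FPKM in CD31+CD34+ cells. PECAM1, listed as a marker of CD31+CD34+ cells, averaged 55.2 FPKM there and 95.9 in CD43+ cells.

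**Figure D1:**
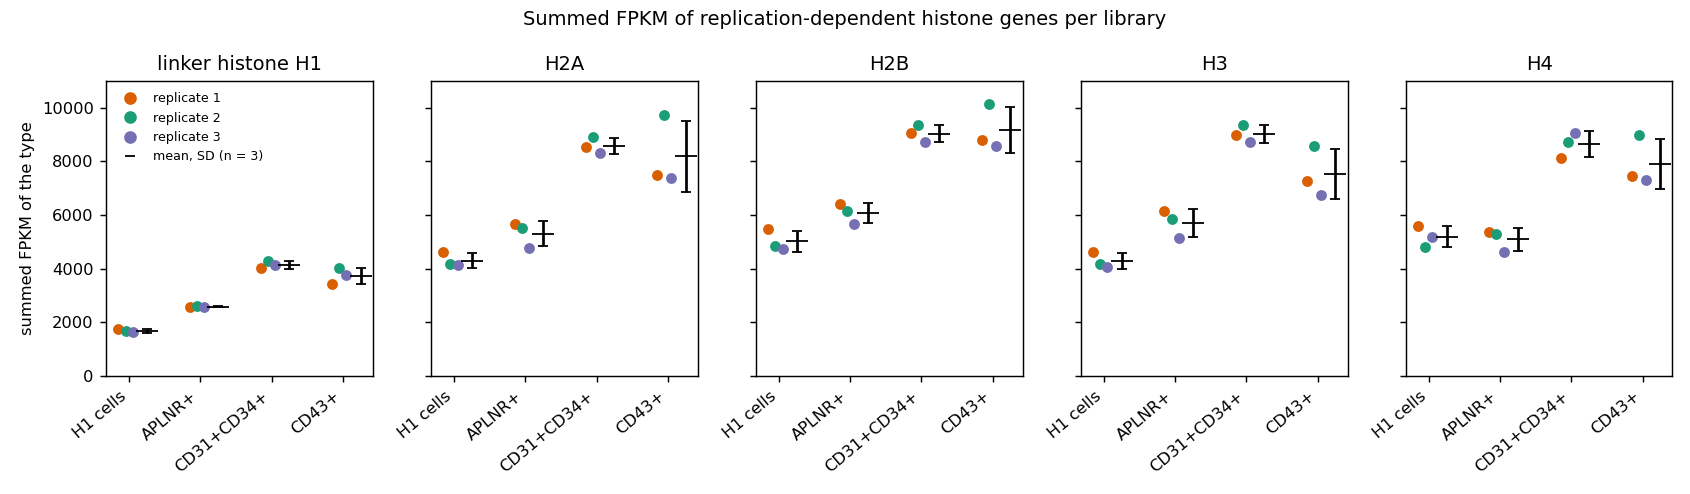
Summed FPKM (vertical axes, linear from 0) of the genes of each histone type in each library, by population (horizontal axes), with replicates colored and the mean and SD of 3 libraries beside them. All 5 types were higher in CD31+CD34+ cells than in H1 cells without overlap, and the H4 libraries of H1 cells (5191 ± 391) and APLNR+ cells (5088 ± 417) overlapped.

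The size of the change in these sums differed by type. Linker histone H1 genes summed to 1673 ± 61.7 FPKM in H1 cells, 2573 ± 15.9 in APLNR+, 4135 ± 137 in CD31+CD34+ and finally 3723 ± 308 in CD43+ cells (SD, n = 3 throughout), that is 1.54, 2.47 and 2.23 times the first value. H4 genes, in contrast, summed to 0.980, 1.67 and 1.52 times their level in H1 cells. The linker share of all histone FPKM lay between 7.90% and 8.43% in H1 cells and between 9.70% and 11.3% in the other 9 libraries. The H4 share lay between 24.5% and 26.2% in H1 cells and between 20.3% and 23.3% elsewhere. Neither pair of ranges overlapped. H2A and H2B together stood at 0.982 ± 0.0203 times H3 and H4 in H1 cells and at 1.12 ± 0.0156 times in CD43+ cells. The other values of that ratio were 1.05 ± 0.0133 in APLNR+ and 0.998 ± 0.0360 in CD31+CD34+ cells.

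Single genes were then compared between populations with limma on log2(FPKM + 1), a scale that understates the change of genes at low levels, and a call required both an adjusted p under 0.05 and a 2-fold change. From H1 to APLNR+ cells 30 of the 62 genes rose at an adjusted p under 0.05 (22.7% of all 14840 genes tested) and 7 fell (35.2%). With the 2-fold minimum 1 rose (8.3% of all genes) and 4 fell (7.62%). The median log2 change of the 62 was 0.30, against -0.12 over all genes tested. The called split depended on the scaling, with 7 higher and 3 lower under quantile normalization and 2 and 4 with upper-quartile scaling. It was 8 and 3 with TPM (FPKM rescaled to the same total in each library) computed without small RNA genes. In replicates 2 and 3 alone the split was 2 higher and 1 lower, and without H1 cell replicate 3 it was 1 and 2. HIST1H1A did not pass the filter in either of these settings, nor HIST1H2BB in replicates 2 and 3 alone, so they were not tested there.

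The rise was broadest from APLNR+ to CD31+CD34+ cells. There 47 of the 62 genes rose at an adjusted p under 0.05 (35.9% of all genes) and 7 fell (37.9%), and the median log2 change was 0.60 against -0.01 over all genes. All 4 genes called with the 2-fold minimum were higher (12.5% of all genes), and 0 were lower (17.1% of all genes), the same 7 genes passing at an unadjusted p under 0.05. Among H4 genes 10 of 11 rose, and among H3 genes 10 of 11. With TPM scaling 21 genes were called higher, with upper-quartile scaling 11 and with quantile normalization 2. TPM without small RNA genes gave 4 higher and 2 lower, and a pseudocount of 0.1 gave 4 higher and 4 lower. TPM scaling also moved the median of all genes upward, and shares over all genes were not computed under these settings.

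From CD31+CD34+ to CD43+ cells little rose further. Only HIST1H2BF rose at an adjusted p under 0.05 (25.9% of all genes) and 15 fell (27.8%). With the 2-fold minimum 0 rose (5.58%), with 3 at an unadjusted p under 0.05, and 1 fell (8.79%). The median was -0.10, against -0.005 over all genes, and turned to 0.09 under TPM scaling, where the median of all genes was itself 0.14. Without CD43+ replicate 2 a further gene was called lower, 2 in all.

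In CD43+ cells, set against the undifferentiated H1 cells, 42 of 62 genes were higher at an adjusted p under 0.05 (33.2% of all genes) and 9 lower (41.5%). With the 2-fold minimum 20 were higher (14.6%) and 5 lower (22.5%), and the median was 0.78 against -0.10. TPM scaling called 47 higher and 4 lower, but there the median of all genes also moved, to 0.69. Upper-quartile scaling called 32 and 4, and replicates 2 and 3 alone 24 and 2. By stage means, 31 of the 62 genes were highest in CD31+CD34+ cells (24.6% of all genes), 19 in CD43+ (22.4%), 7 in H1 cells (34.9%) and 5 in APLNR+ cells (18.2%).

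**Figure D2:**
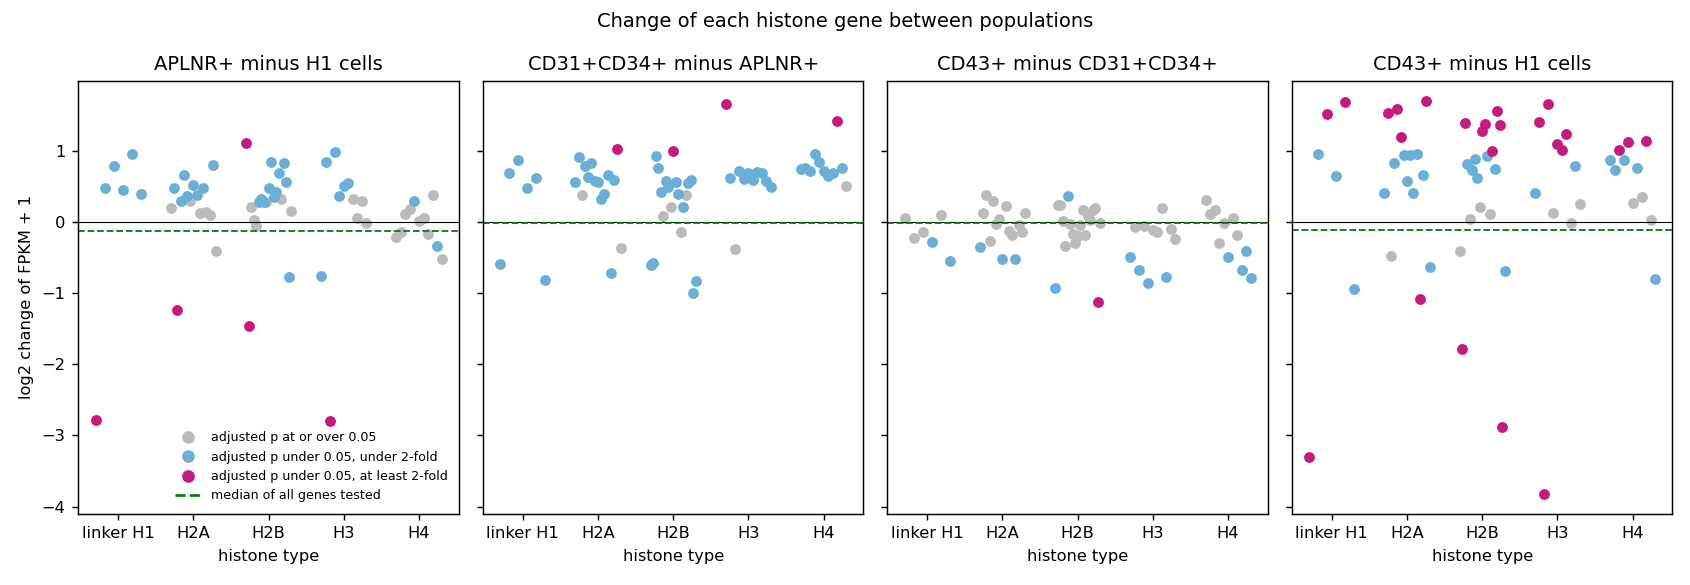
Log2 change of FPKM + 1 (vertical axis) for each of 62 tested histone genes in 4 comparisons, by histone type, with color giving the limma result and a dashed line the median of all genes tested. Most points lie above that line in all panels but that of CD43+ minus CD31+CD34+ (medians 0.30, 0.60 and 0.78), with a few genes far below 0.

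**Figure D3:**
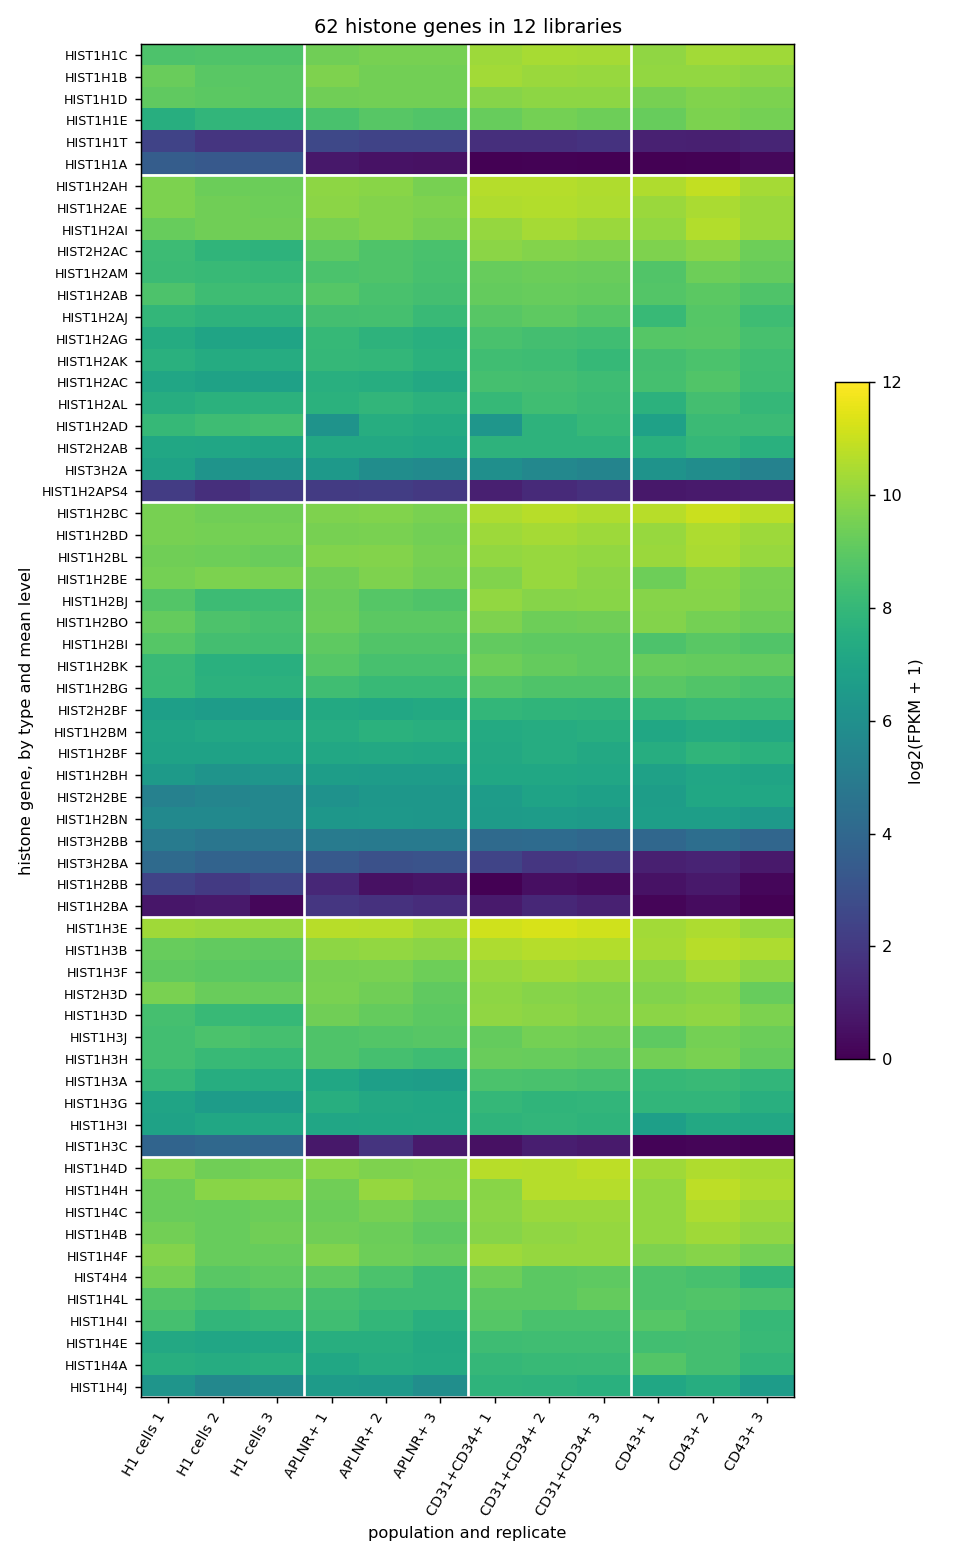
Level of the 62 tested histone genes, as log2(FPKM + 1) by color, in the 12 libraries (columns, by population and replicate), ordered by type and mean. The dark rows at the foot of the types are the low genes such as HIST1H1A (9.67 FPKM in H1 cells and 0.553 in APLNR+ cells).

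Linker histone H1 was carried by HIST1H1C, HIST1H1B, HIST1H1D and HIST1H1E, which encode the main somatic subtypes. HIST1H1C had the highest mean. It read 401, 418 and 414 FPKM in H1 cells, 671, 739 and 733 in APLNR+ cells, then 1215, 1368 and 1345 in CD31+CD34+ cells, and lastly 1014, 1309 and 1257 in CD43+ cells. The 4 populations followed each other without overlap up to CD31+CD34+ cells, and CD43+ libraries overlapped CD31+CD34+ ones. The log2 change of CD43+ against H1 cells was 1.53 ± 0.11 (SE, limma adjusted p 5.69e-08). HIST1H1E rose furthest among the linker genes. It read 183, 235 and 235 FPKM in H1 cells, 376, 468 and 431 in APLNR+ cells, then 587, 718 and 655 in CD31+CD34+ cells, and lastly 591, 796 and 727 in CD43+ cells. From H1 to CD43+ cells its log2 value changed by 1.69 ± 0.14 (SE, limma adjusted p 3.46e-07), which was among the 3 largest rises of the family in that comparison. HIST1H1B averaged 527 ± 75.1 FPKM in H1 cells, 739.8 ± 79.2 in APLNR+, 1202 ± 83.7 in CD31+CD34+ and finally 1028 ± 68.5 in CD43+ cells and HIST1H1D 504 ± 24.7 FPKM in H1 cells, 689 ± 12.9 in APLNR+, 968 ± 52.7 in CD31+CD34+ and finally 796 ± 53.1 in CD43+ cells; both rose at each of the first steps (log2 changes of 0.49 and 0.70 for HIST1H1B, 0.45 and 0.49 for HIST1H1D), and HIST1H1D fell at the last (-0.28, adjusted p 0.0151).

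HIST1H1A went the other way. It encodes a linker subtype described in early embryos, thymus and spleen. It read 10.6, 9.17 and 9.25 FPKM in H1 cells, 0.687, 0.526 and 0.447 in APLNR+ cells, then 0, 0.0663 and 0.0249 in CD31+CD34+ cells, and lastly 0, 0.0547 and 0.192 in CD43+ cells. H1 cells were thus alone above 1 FPKM, and replicate 1 of CD31+CD34+ and of CD43+ cells listed the gene at 0. In APLNR+ cells its log2 difference from H1 cells was -2.78 ± 0.10 (SE, limma adjusted p 3.19e-10). It fell again toward CD31+CD34+ cells (-0.59, adjusted p 0.000164). With each library of the later populations left out in turn the first change ranged from -2.84 to -2.73. Without any 1 of the H1 cell libraries the gene no longer passed the filter and was not tested.

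**Figure D4:**
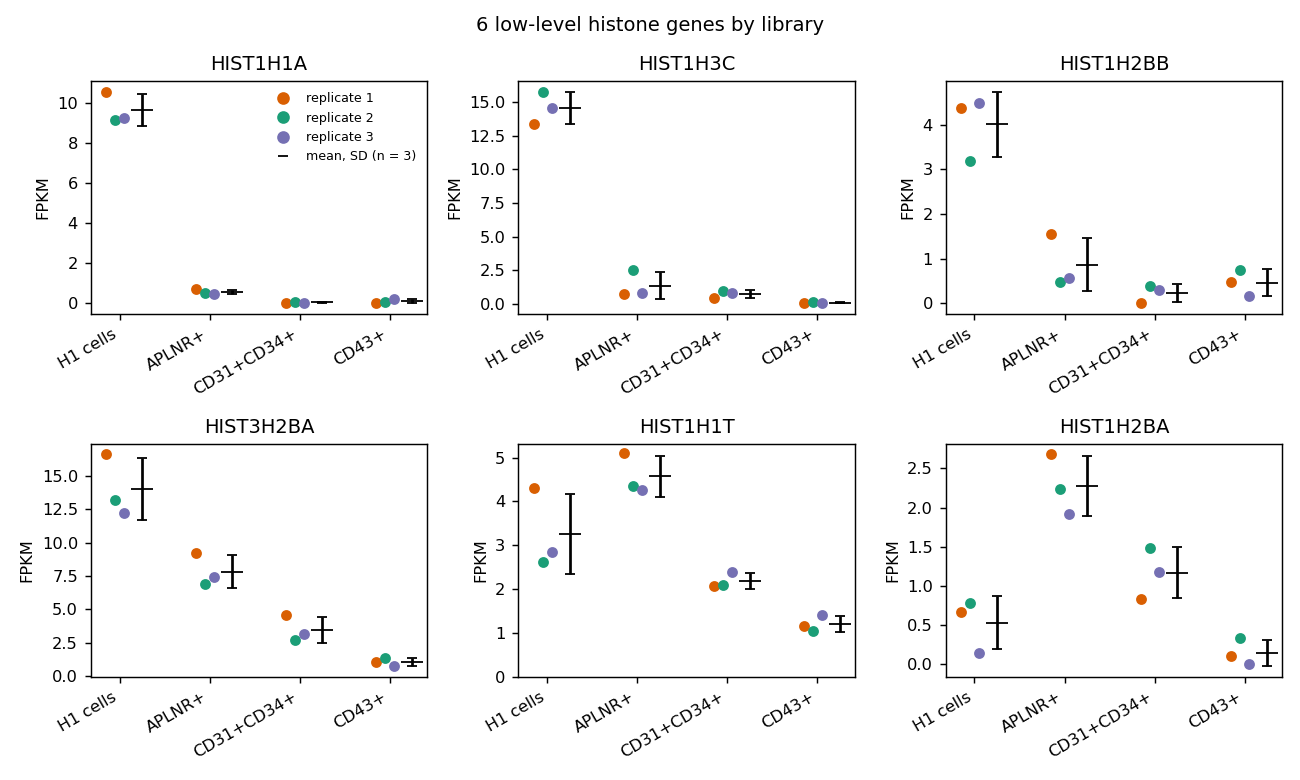
FPKM (linear axes) of 6 histone genes with low levels in each library by population, with the mean and SD of 3 libraries. HIST1H1A, HIST1H3C and HIST1H2BB were high in H1 cells alone, HIST3H2BA fell at each step from 14.0 to 1.05, and HIST1H2BA peaked in APLNR+ cells at 2.28.

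Among H2A genes the highest means belonged to HIST1H2AH, HIST1H2AE and HIST1H2AI, which encode canonical H2A. HIST1H2AH averaged 685 ± 82.8 FPKM in H1 cells, 893 ± 131 in APLNR+, 1586 ± 42.2 in CD31+CD34+ and finally 1583 ± 273 in CD43+ cells. HIST1H2AE averaged 711 ± 75.7 FPKM in H1 cells, 878 ± 70.4 in APLNR+, 1523 ± 56.7 in CD31+CD34+ and finally 1273 ± 147 in CD43+ cells, and HIST1H2AI 647 ± 44.0 FPKM in H1 cells, 801 ± 75.6 in APLNR+, 1206 ± 114 in CD31+CD34+ and finally 1261 ± 264 in CD43+ cells. From H1 to CD43+ cells the log2 changes were 1.20, 0.84 and 0.94, so HIST1H2AH alone of these passed the 2-fold minimum. In HIST1H2AI 62.3% of the transcript's 50-base stretches also occur in HIST1H2AJ, so the split of reads between these genes is uncertain. HIST2H2AC, a cluster 2 gene, rose most of all histone genes in that comparison. It read 298, 227 and 217 FPKM in H1 cells, 513, 407 and 379 in APLNR+ cells, then 976, 865 and 815 in CD31+CD34+ cells, and lastly 825, 968 and 655 in CD43+ cells. Its libraries climbed without overlap to CD31+CD34+ cells and then overlapped. The fit put the log2 change of CD43+ against H1 cells at 1.71 ± 0.17 (SE, limma adjusted p 1.45e-06). Its step into CD31+CD34+ cells was 1.04 ± 0.17 and dropped under 2-fold without APLNR+ replicate 2 or 3 or CD31+CD34+ replicate 1, where it was 1.00, 0.95 and 0.97. Of its transcript's 50-base stretches 30.5% also occur in HIST2H2AA3, a gene listed under 1 FPKM throughout, so how reads were divided between them is uncertain.

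HIST1H2AD and HIST3H2A had their highest means in H1 cells. HIST1H2AD read 262, 310.0 and 326 FPKM in H1 cells, 71.4, 178 and 158 in APLNR+ cells, then 78.7, 218 and 261 in CD31+CD34+ cells, and lastly 116, 293 and 291 in CD43+ cells. Replicate 1 stood apart in each differentiated population. The log2 change of APLNR+ against H1 cells was -1.23 ± 0.48 (SE, limma adjusted p 0.043), and in CD43+ against H1 cells it missed the threshold (-0.47, adjusted p 0.389). HIST3H2A averaged 88.0 ± 27.7 FPKM in H1 cells, 65.7 ± 18.8 in APLNR+, 50.5 ± 10.3 in CD31+CD34+ and finally 56.2 ± 15.8 in CD43+ cells and was lower in CD43+ than in H1 cells (log2 change -0.63, adjusted p 0.046), while APLNR+ against H1 cells missed the threshold (-0.41, adjusted p 0.208). HIST1H2APS4, an annotated pseudogene, read between 2.10 and 3.48 FPKM in the 6 libraries of the first populations and between 0.704 and 0.920 in CD43+ cells. From H1 to CD43+ cells its log2 value changed by -1.08 ± 0.17 (SE, limma adjusted p 6.98e-05).

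Among H2B genes HIST1H2BC was highest. It read 736, 681 and 676 FPKM in H1 cells, 808, 859 and 765 in APLNR+ cells, then 1452, 1696 and 1502 in CD31+CD34+ cells, and lastly 1692, 2125 and 1737 in CD43+ cells. The lowest CD31+CD34+ library had more than the highest APLNR+ library. In CD43+ cells its log2 difference from H1 cells was 1.40 ± 0.11 (SE, limma adjusted p 1.65e-07). HIST1H2BD averaged 718 ± 14.8 FPKM in H1 cells, 734 ± 40.0 in APLNR+, 1248 ± 76.6 in CD31+CD34+ and finally 1278 ± 179 in CD43+ cells, and its rise came in the step to CD31+CD34+ cells (0.76 ± 0.11, adjusted p 3.72e-05). HIST1H2BL averaged 645 ± 37.9 FPKM in H1 cells, 825 ± 69.4 in APLNR+, 1087 ± 48.8 in CD31+CD34+ and finally 1237 ± 165 in CD43+ cells. HIST1H2BJ rose by 1.00 ± 0.17 into CD31+CD34+ cells (adjusted p 0.000213), at the edge of the 2-fold minimum.

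HIST1H2BB, HIST3H2BA and HIST1H2BA had their own courses. HIST1H2BB read 4.37, 3.18 and 4.49 FPKM in H1 cells, 1.54, 0.476 and 0.576 in APLNR+ cells, then 0, 0.399 and 0.291 in CD31+CD34+ cells, and lastly 0.484, 0.758 and 0.155 in CD43+ cells. The fit put the log2 change of APLNR+ against H1 cells at -1.46 ± 0.22 (SE, limma adjusted p 0.000132). HIST3H2BA, annotated as a unitary pseudogene, read 16.6, 13.2 and 12.2 FPKM in H1 cells, 9.21, 6.86 and 7.38 in APLNR+ cells, then 4.55, 2.70 and 3.15 in CD31+CD34+ cells, and lastly 1.08, 1.32 and 0.744 in CD43+ cells. Its 4 populations did not overlap. It fell by 0.77, 0.99 and 1.11 on the log2 scale over the 3 steps (adjusted p 0.00249, 0.00025 and 0.000188), and the log2 change of CD43+ against H1 cells was -2.87; the last step, the 1 call there, was -0.95 without CD31+CD34+ replicate 1 and -0.96 in replicates 2 and 3 alone, both under 2-fold. In HIST3H2BA 30.1% of 50-base stretches are shared with other genes, mostly HIST3H2BB, which read between 24.8 and 30.9 FPKM up to APLNR+ cells and between 14.7 and 19.0 FPKM after them.

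H3 was led by HIST1H3E, HIST1H3B and HIST1H3F. HIST1H3E read 1234, 1169 and 1141 FPKM in H1 cells, 1665, 1606 and 1325 in APLNR+ cells, then 2248, 2467 and 2274 in CD31+CD34+ cells, and lastly 1295, 1486 and 1118 in CD43+ cells. It rose into CD31+CD34+ cells and then fell (-0.85 ± 0.12, adjusted p 9.78e-05), so that CD43+ and H1 cells differed by 0.13 (adjusted p 0.356). HIST1H3B averaged 558 ± 22.3 FPKM in H1 cells, 1004 ± 53.9 in APLNR+, 1555 ± 69.0 in CD31+CD34+ and finally 1496 ± 165 in CD43+ cells, and HIST1H3F 506 ± 26.6 FPKM in H1 cells, 723 ± 55.7 in APLNR+, 1166 ± 61.4 in CD31+CD34+ and finally 1090.3 ± 161 in CD43+ cells; neither fell at the last step at an adjusted p under 0.05. HIST1H3I took the course of HIST1H3E, with a fall of -0.77 ± 0.12 (adjusted p 0.00022).

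HIST1H3A, HIST1H3D and HIST1H3C had the largest H3 changes. HIST1H3A dipped in APLNR+ cells and read 253, 175 and 170.2 FPKM in H1 cells, 141, 109 and 100.2 in APLNR+ cells, then 384, 369.7 and 352 in CD31+CD34+ cells, and lastly 266, 284 and 236 in CD43+ cells. The log2 change of CD31+CD34+ against APLNR+ cells was 1.67 ± 0.16 (SE, limma adjusted p 1.63e-06), the largest rise of the family between consecutive populations. HIST1H3D read 346, 268 and 263 FPKM in H1 cells, 677, 568 and 501 in APLNR+ cells, then 1043, 956 and 869 in CD31+CD34+ cells, and lastly 954, 1045 and 782 in CD43+ cells. From H1 to CD43+ cells its log2 value changed by 1.66 ± 0.15 (SE, limma adjusted p 6.99e-07). All of its transcript's 50-base stretches also lie in the overlapping annotation AL031777.3, as do 98.0% of those of HIST1H2AD, and the table lists HIST1H3D on 2 lines, so the split of reads at this locus is uncertain. HIST1H3C read 13.4, 15.8 and 14.5 FPKM in H1 cells, 0.735, 2.51 and 0.850 in APLNR+ cells, then 0.430, 0.981 and 0.838 in CD31+CD34+ cells, and lastly 0.0819, 0.137 and 0.0644 in CD43+ cells. All H1 cell libraries lay above every other library. In APLNR+ cells its log2 difference from H1 cells was -2.79 ± 0.22 (SE, limma adjusted p 5.23e-07), and it reached -3.83 ± 0.22 in CD43+ against H1 cells (adjusted p 1.16e-08).

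The H4 genes encode the same protein and can be told apart at the RNA level only, except HIST1H4G, whose coding model is 297 bases long against 312 for the other H4 models of coding sequence alone. HIST1H4D, HIST1H4H and HIST1H4C had the highest means. HIST1H4D averaged 757 ± 102 FPKM in H1 cells, 860.0 ± 59.4 in APLNR+, 1685 ± 82.0 in CD31+CD34+ and finally 1388 ± 149 in CD43+ cells and rose by 0.97 ± 0.12 into CD31+CD34+ cells (adjusted p 1.18e-05). HIST1H4C averaged 611 ± 24.8 FPKM in H1 cells, 665 ± 68.5 in APLNR+, 1105 ± 119 in CD31+CD34+ and finally 1255 ± 202 in CD43+ cells. HIST1H4H spread widely within populations and read 639, 926 and 969 FPKM in H1 cells, 672, 1091 and 886 in APLNR+ cells, then 941, 1639 and 1631 in CD31+CD34+ cells, and lastly 1076, 1785 and 1477 in CD43+ cells; replicate 1 was the lowest in each. HIST1H4J, at a lower level, averaged 60.7 ± 13.6 FPKM in H1 cells, 80.1 ± 17.7 in APLNR+, 213 ± 14.0 in CD31+CD34+ and finally 137 ± 39.1 in CD43+ cells. The fit put the log2 change of CD31+CD34+ against APLNR+ cells at 1.42 ± 0.22 (SE, limma adjusted p 0.000105). Of its 50-base stretches 81.2% occur in HIST1H4K, which was listed under 1 FPKM in all libraries. HIST4H4, from cluster 4, averaged 572 ± 129 FPKM in H1 cells, 404 ± 115 in APLNR+, 565 ± 83.4 in CD31+CD34+ and finally 333 ± 84.7 in CD43+ cells and fell at the last step (-0.78 ± 0.24, adjusted p 0.0151); CD43+ cells were lower than H1 cells by 0.79 (adjusted p 0.00957).

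Some of the genes at or near 0 were near-identical copies. Of the 71 coding genes, 9 stayed under 1 FPKM in every library. They were HIST2H2AA3, HIST2H2AA4, HIST2H3A, HIST2H3C, HIST2H3PS2, HIST2H4A, HIST2H4B, HIST1H4K and HIST1H4G. In the first 8 more than 90% of the 50-base stretches were found in another gene (97.1% to 100%); in all, 10 coding genes shared that much, and 50 shared under 10%. Levels of such copies depend on how reads were divided and are uncertain.

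Of the 4 genes known as testis-specific variants, 2 were measurable. HIST1H1T read 4.32, 2.62 and 2.85 FPKM in H1 cells, 5.11, 4.36 and 4.26 in APLNR+ cells, then 2.07, 2.09 and 2.39 in CD31+CD34+ cells, and lastly 1.15, 1.04 and 1.40 in CD43+ cells. Its mean was highest in APLNR+ cells and lower in CD43+ than in H1 cells (log2 change -0.94 ± 0.14, adjusted p 5.74e-05). HIST1H2BA read 0.671, 0.779 and 0.147 FPKM in H1 cells, 2.68, 2.24 and 1.92 in APLNR+ cells, then 0.837, 1.49 and 1.18 in CD31+CD34+ cells, and lastly 0.105, 0.330 and 0 in CD43+ cells. The lowest APLNR+ library lay above all libraries of the other populations. The log2 change of APLNR+ against H1 cells was 1.12 ± 0.18 (SE, limma adjusted p 0.000192); without H1 cell replicate 3 the change was 0.92, under 2-fold. HIST1H2AA, its divergent neighbor, was listed at 0 in H1 cell replicate 1 and all CD43+ libraries and peaked at 1.14 FPKM in CD31+CD34+ replicate 2. HIST3H3 ranged from 0 to 1.23 FPKM.

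The 6 genes known to give polyadenylated mRNAs as well were HIST1H1C, HIST1H2AC, HIST1H2BC, HIST1H2BD, HIST1H2BK and HIST2H2BE. All 6 rose from H1 to CD43+ cells at an adjusted p under 0.05 (33.2% of all genes), and 5 passed the 2-fold minimum (14.6%). Their median was 1.46, against 0.78 over the 62 tested histone genes and -0.10 over all genes. Together they read 2213 ± 95.5 FPKM in H1 cells, 2904 ± 111 in APLNR+, 5137 ± 264 in CD31+CD34+ and finally 5385 ± 613 in CD43+ cells, 1.31, 2.32 and 2.43 times the first value. HIST2H2BE read 37.6, 43.2 and 45.3 FPKM in H1 cells, 67.9, 79.8 and 79.9 in APLNR+ cells, then 97.7, 126 and 114 in CD31+CD34+ cells, and lastly 100.2, 143 and 139 in CD43+ cells. Its log2 change from H1 to CD43+ cells was 1.57 ± 0.15 (adjusted p 8.19e-07). HIST1H2AC averaged 124 ± 11.2 FPKM in H1 cells, 173 ± 19.5 in APLNR+, 329.6 ± 21.6 in CD31+CD34+ and finally 364 ± 63.9 in CD43+ cells, a change of 1.54 ± 0.13 (adjusted p 3.97e-07). HIST1H2BK averaged 220.1 ± 48.4 FPKM in H1 cells, 396 ± 56.9 in APLNR+, 587 ± 66.8 in CD31+CD34+ and finally 571 ± 17.1 in CD43+ cells; 74.1% of its 50-base stretches occur elsewhere, mostly in H2BFS.

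Grouped by annotated transcript rather than by function, the tested coding genes gave 4 classes. From H1 to CD43+ cells the median was 0.66 over 29 genes annotated as coding sequence alone, 0.87 over 12 with a stem-loop and no AATAAA after it, 1.03 over 13 with both, and 0.91 over 6 longer models without the stem-loop letters. The ranges overlapped widely, from -3.83 to 1.71 in the first class and from -0.68 to 1.60 in the third.

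Many H2A and H2B genes stand head to head and share a promoter. RefSeq promoter windows (250 bases before to 50 after each start, GRCh38.p14) were matched for 61 histone genes, in 65 windows. Among these, 8 H2A and H2B pairs had windows that overlap on opposite strands, by 253 to 293 bases, and the changes from H1 to CD43+ cells could be set side by side for 7 of them. HIST2H2AC and HIST2H2BE changed by 1.71 and 1.57. HIST1H2AG and HIST1H2BJ changed by 1.60 and 1.29. HIST1H2AK and HIST1H2BN changed by 0.94 and 1.01, HIST1H2AI and HIST1H2BL by 0.94 and 0.93, HIST1H2AM and HIST1H2BO by 0.97 and 0.75, and HIST1H2AJ and HIST1H2BM by 0.59 and 0.12. HIST3H2A and HIST3H2BB were the only pair below 0, at -0.63 and -0.68. The split of reads is uncertain in some pairs. In HIST1H2AI 62.3% of 50-base stretches occur in HIST1H2AJ, and in HIST1H2AJ 83.7% occur in HIST1H2AI. In HIST1H2AM 86.3% occur in HIST1H3J. The partners shared their sign in each of the 7 pairs in this comparison, in which 50 of all 62 tested genes were above 0. They did so in 6 of 7 pairs from H1 to APLNR+ cells, in 6 of 7 from APLNR+ to CD31+CD34+ cells and in 3 of 7 from CD31+CD34+ to CD43+ cells, where HIST1H2AG changed by 0.30 and HIST1H2BJ by -0.20.

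The promoters of the most raised and of the lowered pair are shown from the H2A side. Capitals mark the TATA box letters TATAAA, the CAAT box letters CCAAT and the octamer ATTTGCAT wherever these letters occur on either strand.
The HIST2H2AC window is chr1:149886668-149886967 (plus strand) and that of HIST3H2A chr1:228457824-228458123 (minus strand).
HIST2H2AC: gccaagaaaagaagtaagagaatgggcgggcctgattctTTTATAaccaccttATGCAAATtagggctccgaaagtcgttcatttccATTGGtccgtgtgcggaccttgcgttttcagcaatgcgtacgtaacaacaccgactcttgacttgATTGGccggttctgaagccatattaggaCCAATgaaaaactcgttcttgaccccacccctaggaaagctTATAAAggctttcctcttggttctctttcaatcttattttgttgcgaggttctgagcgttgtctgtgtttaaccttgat
HIST3H2A: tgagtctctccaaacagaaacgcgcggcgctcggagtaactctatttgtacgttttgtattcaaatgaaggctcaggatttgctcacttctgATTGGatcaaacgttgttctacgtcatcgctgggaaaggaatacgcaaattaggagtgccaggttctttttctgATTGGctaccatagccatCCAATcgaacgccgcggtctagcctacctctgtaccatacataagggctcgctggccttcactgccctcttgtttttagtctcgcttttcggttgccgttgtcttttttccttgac
The HIST2H2AC window held all 3 motifs, whereas the HIST3H2A window held CCAAT without either of the others. The octamer, which binds POU-domain factors, was present in 68.8% of H2A and 66.7% of H2B windows and in 1.77% of all 35116 promoter windows. It was in 6.67% of H3 windows and in 0 of the 6 linker and 13 H4 windows. The H3 match was 1 window of HIST1H3D that is also the HIST1H2AD window. The other HIST1H3D window had no octamer. TATAAA stood in 67.7% of the histone windows and 11.5% of all, and CCAAT in 84.6% and 34.6%, though in only 23.1% of H4 windows. A match describes letters and is no evidence of binding, and the raised pair HIST1H2AK and HIST1H2BN had no octamer either.

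Genes of S phase and of histone mRNA metabolism were set beside the histone genes. The 14 listed S-phase genes (replication licensing factors, PCNA and nucleotide enzymes among them) summed to 1017 ± 21.3 FPKM in H1 cells, then 557 ± 21.1 in APLNR+, 672 ± 35.3 in CD31+CD34+ and finally 738 ± 64.7 in CD43+ cells. From H1 to APLNR+ cells 1 of the 14 rose (22.7% of all genes tested) and 10 fell (35.2%) at an adjusted p under 0.05. From H1 to CD43+ cells 3 rose (33.2%) and 9 fell (41.5%). From APLNR+ to CD31+CD34+ cells 6 rose (35.9%) and 3 fell (37.9%), and from CD31+CD34+ to CD43+ cells 3 rose (25.9%) and 1 fell (27.8%). Against H1 cells the histone sum was thus higher and the S-phase sum lower in all 3 later populations, whereas both were higher in CD31+CD34+ than in APLNR+ cells. Of 15 factors that transcribe, cut or degrade histone mRNA 13 were tested. From H1 to CD43+ cells 3 of these rose (33.2% of all genes) and 5 fell (41.5%). NPAT, the activator of histone gene transcription at histone locus bodies, averaged 6.52 ± 1.17 FPKM in H1 cells, 4.79 ± 0.844 in APLNR+, 0.978 ± 0.185 in CD31+CD34+ and finally 1.76 ± 0.282 in CD43+ cells. SLBP, which binds the stem-loop, averaged 19.8 ± 2.26 FPKM in H1 cells, 18.3 ± 2.75 in APLNR+, 13.6 ± 1.66 in CD31+CD34+ and finally 24.2 ± 5.74 in CD43+ cells; it fell by 0.40 into CD31+CD34+ cells (adjusted p 0.049) and rose by 0.77 into CD43+ cells (adjusted p 0.00214). RNU7-1, the U7 RNA gene, was listed at 0 in all 12 libraries. The part of proliferation or RNA selection in these levels was not tested.

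The replication-independent histone genes, whose mRNAs are mostly polyadenylated and not confined to S phase, were lower in sum. They read 1552 ± 169 FPKM in H1 cells and 1040 ± 50.8 in CD43+ cells. H2AFZ, which encodes H2A.Z, averaged 570.1 ± 53.0 FPKM in H1 cells, 417 ± 15.2 in APLNR+, 232 ± 6.59 in CD31+CD34+ and finally 232 ± 4.30 in CD43+ cells, and H1F0, a linker variant of quiescent and differentiated cells, averaged 3.85 ± 0.646 FPKM in H1 cells, 18.2 ± 1.09 in APLNR+, 18.2 ± 0.263 in CD31+CD34+ and finally 28.7 ± 1.25 in CD43+ cells. From H1 to CD43+ cells 4 of 11 tested rose (33.2% of all genes) and 5 fell (41.5%) at an adjusted p under 0.05. Of 7 histone chaperone genes 1 rose and 5 fell, beside the same shares over all genes.

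Replicate 1 was compared with replicates 2 and 3, since the way a library is made can change how RNAs without a poly(A) tail are caught. The number 1 is all the labels say of these libraries. Of other RNAs without poly(A) tails, RMRP set replicate 1 apart most in the later populations. SCARNA2 was also highest in replicate 1, at 2715 FPKM against 2512 and 2323 in CD31+CD34+ cells. In CD43+ cells it read 3788 against 3075 and 2172. SCARNA10 was lowest in replicate 1 of both populations, and TERC lay between the other replicates. The list of 10 such genes summed to 158101 FPKM in CD31+CD34+ replicate 1 against 8844 and 10392, and to 215877 in CD43+ replicate 1 against 10312 and 8618. RMRP was listed at 0 in those other 4 libraries. Without it the remaining 9 genes summed to 8106 FPKM in CD31+CD34+ replicate 1 against 8844 and 10392. In CD43+ replicate 1 they summed to 10044 against 10312 and 8618, so no such gap was seen. Of the 9, only SCARNA2, SCARNA10 and TERC were above 0 in these later populations. RN7SK was listed at 0 in every library outside H1 cells, and RPPH1 in every CD31+CD34+ and CD43+ library. RN7SL1, RN7SL2, RNU11 and RNU12 were at 0 throughout. The list therefore gives no general measure of how RNAs without poly(A) tails were caught. In H1 cells and APLNR+ cells the sums of all 10 genes in replicate 1, 286484 and 184757, lay within the range of 166378 to 341265 of the others.

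The sum of the 85 genes in replicate 1 was 1.12 times the mean of replicates 2 and 3 in H1 cells, 1.09 in APLNR+, 0.973 in CD31+CD34+ and lowest, 0.915, in CD43+ cells. With the populations in the model, 13 of 62 genes were higher in replicate 1 at an adjusted p under 0.05 (4.66% of all genes) and 10 lower (19.1%). With the 2-fold minimum 0 were higher (0.155%) and 1 lower (0.202%). The median was 0.06 against -0.08 over all genes. It was -0.02 with TPM computed without small RNA genes, so the sign of so small a shift depends on the scaling.

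The called gene was HIST1H2AD, at -1.10 ± 0.16 (adjusted p 0.00113). Its replicate 1 had 0.825 times the level of replicates 2 and 3 in H1 cells, and 0.424, 0.329 and 0.399 times in the later populations. Upper-quartile scaling took it to -0.99 and leaving out CD31+CD34+ replicate 1 to -0.94, both under 2-fold, and under TPM scaling its adjusted p was 0.278. HIST1H3D, which shares the locus, was higher in replicate 1 by 0.25 (adjusted p 0.0502), the opposite direction.

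Smaller differences recurred in all populations. Replicate 1 lay above both others in each of the 4 populations for 8 genes (4.08% of all genes) and below both for 10 (18.7%). HIST3H2A stood at 1.67, 1.59, 1.39 and 1.45 times the other replicates (0.60 ± 0.09 on the log2 scale, adjusted p 0.00131), HIST4H4 at 1.44, 1.54, 1.28 and 1.35 times (0.49, adjusted p 0.00734) and HIST1H4I at 1.41, 1.47, 1.23 and 1.45 times (0.48, adjusted p 0.0067). HIST1H4H stood at 0.675, 0.680, 0.576 and 0.660 times (-0.63 ± 0.08, adjusted p 0.000446), and HIST2H2BE at 0.850, 0.850, 0.817 and 0.709 times (-0.31, adjusted p 0.0025). H4 genes were thus on both sides. Over all genes, 4.66% were higher in replicate 1 at an adjusted p under 0.05 and 19.1% lower. By class of transcript, 4 of the 12 genes with a stem-loop and no AATAAA after it were higher and 0 lower. HIST3H2A, HIST4H4 and HIST1H4I are among those 4. Of the 13 with both, 2 were higher and 3 lower, HIST1H4H and HIST2H2BE among the lower. Of the 29 coding-sequence models 5 were higher and 5 lower, and of the 6 longer models without the stem-loop letters 1 was higher and 2 lower. The medians of the 4 classes in that order were 0.06, 0.05, 0.08 and -0.08, and the difference between classes was not tested.

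**Figure D5:**
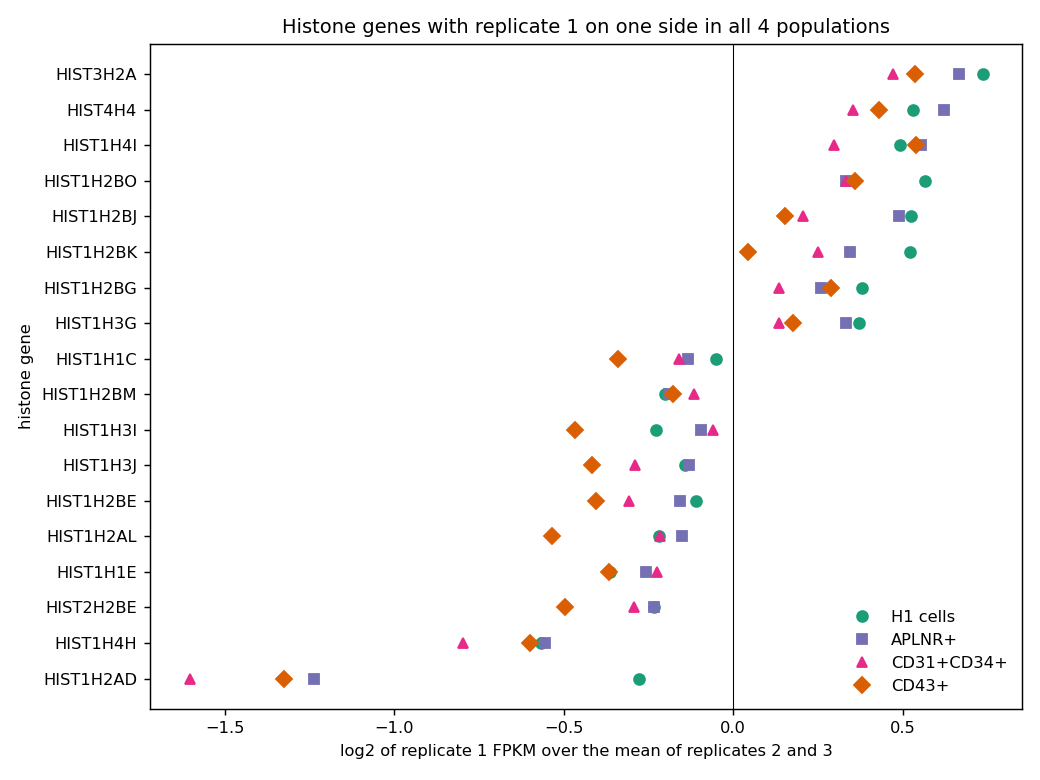
Log2 ratio of replicate 1 to the mean of replicates 2 and 3 (horizontal axis) in each population (symbols) for the 18 histone genes with replicate 1 on one side of both others in all 4 populations. HIST3H2A is highest, with 1.39 to 1.67 times, and HIST1H2AD lowest, with 0.329 times in CD31+CD34+ cells.

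Whether the replicate 1 difference varied between populations was tested as an interaction. It passed an adjusted p of 0.05 for 0 of the 62 genes (0.135% of all genes), with 8 at an unadjusted p under 0.05; the lowest was HIST1H2AD, with a p of 0.000544 and an adjusted p of 0.183. That count was 61 of 62 with TPM scaling and 28 of 66 with TPM computed without small RNA genes. TPM scaling divides by the summed FPKM of each library. In replicate 1 that sum was 0.893 times the mean of replicates 2 and 3 in H1 cells and 0.467 times in APLNR+ cells. It was 2.52 times in CD31+CD34+ and 1.33 times in CD43+ cells. Shares over all genes were not computed under these scalings, so neither count is read as particular to histone genes. The model left 4 residual degrees of freedom. Exact permutation of 3 against 3 libraries gives p 0.1 at best, so it was not used for single genes.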

How the data were processed

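RNA-seq libraries of 12 samples were grouped by their titles, 3 per population. Per the labels, Trizol was used to extract total RNA and an Illumina TruSeq kit to make the libraries, and the submitters' processing notes name BWA, Bowtie, RSEM and hg19 without roles or versions. The authors deposited FPKM values in 1 table, a column for each library, with gene symbols and no read counts, so depth is unknown, no counting interval is given, and precision rests on 3 libraries per population. FPKM of short transcripts such as histone mRNAs depends on the length correction used, which is not given in the sources used here.

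The table had 58365 lines after 1 text line was left out, and 56593 distinct symbols. For symbols on several lines, the one of highest mean was used. Values were taken as log2(FPKM + 1), a pseudocount of 1, for 14840 symbols at 1 FPKM or more in at least 3 libraries. limma 3.58.1 in R 4.3.3 (eBayes with trend) was fitted to the 4 populations together, with Benjamini-Hochberg adjustment over all symbols tested, and adjusted p values are from it. A second fit had terms for population and replicate 1, and a further fit a replicate 1 term for each population. On simulated data for 14840 genes, 197 of 200 changed genes were called for APLNR+ against H1 cells with 1 false call. For replicate 1, 197 of 200 were called with 2 false calls. How often changes near or below the 2-fold minimum are detected was not tested. Libraries were checked for duplicates; the highest correlation between 2 libraries was 0.9895.

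The members and lists were chosen with earlier results of these data known. Named genes were the 3 highest per histone type, the 3 largest called rises and falls per comparison, 6 genes known for polyadenylated forms and 4 testis variants; other genes were named after their values were seen. Gene types and transcripts came from GENCODE release 29 and promoter sequences from RefSeq (GRCh38.p14), both for a newer genome than hg19. Stretches of 50 bases shared with any other gene's transcripts were counted. The settings varied were the pseudocount, filter, scaling, duplicate lines, trend, minimum change, pseudogenes, replicate terms, the populations fitted and each library. Python 3.11.15 with numpy 2.4.6, pandas 2.3.3 and matplotlib 3.10.9 was used for the remaining steps.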

Additional observations from a re-analysis of the deposited data

How the results depend on the processing

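Counts of called histone genes were 5, 4, 1 and 25 for APLNR+ against H1 cells, CD31+CD34+ against APLNR+, CD43+ against CD31+CD34+ and CD43+ against H1 cells, 1 for replicate 1 and 0 for the interaction. Without a minimum change they were 37, 54, 16, 51 and, for replicate 1, 23. TPM scaling gave 21 for CD31+CD34+ against APLNR+, 2 for CD43+ against CD31+CD34+ and 51 for CD43+ against H1 cells, 0 for replicate 1 and 61 for the interaction. TPM computed without small RNA genes gave 11 for APLNR+ against H1 cells, 5 for CD43+ against CD31+CD34+ and 28 for the interaction. Quantile normalization gave 10, 2 and 2 for the 3 consecutive steps, upper-quartile scaling 11 for CD31+CD34+ against APLNR+ and 0 for replicate 1, and a pseudocount of 0.1 gave 8 and 3 for the 2 later steps. A mean of at least 5 FPKM left 1 call for APLNR+ against H1 cells and replicates 2 and 3 alone 3. Setting pseudogenes aside left 0 for CD43+ against CD31+CD34+, since HIST3H2BA is one. With each library left out in turn the counts ranged from 3 to 6, 3 to 5, 1 to 2, 20 to 30 and, for replicate 1, 0 to 1. The value of 3 came without H1 cell replicate 3, the 2 without CD43+ replicate 2 and the 0 without CD31+CD34+ replicate 1. The causes were not tested, beyond fewer genes or libraries in some settings. Shares over all genes were not computed under the other settings, so these counts alone show nothing particular to histone genes.

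The median change reversed in 2 settings, to 0.0940 for CD43+ against CD31+CD34+ with TPM scaling and to -0.0240 for replicate 1 with TPM without small RNA genes. TPM scaling moved the median of all genes to 0.12, 0.37, 0.14 and 0.69 in the 4 comparisons. For named called genes 374 of the values under other settings kept their call and 10 lost it with the same sign. Settings in which a gene did not pass the filter gave no value and are in neither count. HIST1H1A, HIST1H2BB, HIST1H3C and HIST1H2BA dropped out at a mean of at least 5 FPKM. HIST1H1A also did so in replicates 2 and 3 alone and without any 1 of the H1 cell libraries, and HIST1H2BB in replicates 2 and 3 alone. Same-numbered libraries deviated together with correlations from 0.196 to 0.429 for replicate 1, 0.0254 to 0.247 for replicate 2 and -0.0214 to 0.269 for replicate 3, so the numbers were not taken as pairs. With the replicate number as a block the counts were again 5, 4, 1 and 25.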
